A study of Homo sapiens with 36 samples.

Results

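Mir-320 is a small family of human microRNAs (miRNAs), and its guide strands, the strands that stay in Argonaute, were followed here through 36 small RNA libraries from HEK293T cells, 30 of cells with tagged AGO2 and 6 of cells with an empty vector. The guide strands were taken as the table entries whose name begins with Hsa-Mir-320- and carries no asterisk, the sign of a passenger strand. There were 3 of them, Hsa-Mir-320-P1_3p, Hsa-Mir-320-P2a_3p and Hsa-Mir-320-P2b_3p, among 135 mature miRNAs. P2a and P2b held identical values in all 36 libraries, so they cannot be told apart and are described once, as P2, which leaves 2 distinct members among 124 distinct miRNAs. All 3 derive from the 3p arm, and 0 passenger strands of the family were listed.

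HEK293T is an established human embryonic kidney line that takes up plasmids readily. The cells were transfected with Flag/HA-tagged WT-AGO2, with the variants F182del, N359H, G604R or D619N in the same tagged form, or with the Flag/HA-empty vector, always together with a plasmid for EGFP. Small RNA was sequenced from the lysate (input) and from the anti-HA immunoprecipitate (IP), with 3 replicates of each of the 12 conditions. The transfected protein was overexpressed in cells that still carried their own AGO2 and the other Argonautes, so the input shows the miRNAs of all of these together. The labels do not say that replicates were separate cultures, so p-values measure the spread between these libraries.

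Most miRNAs are cut from long transcripts by the nuclear enzyme Drosha and then by Dicer. The Mir-320 hairpin is the textbook exception: it is transcribed as a short hairpin with a methylguanosine cap at its 5′ end, skips Drosha and goes straight to Dicer. The capped 5p arm is loaded poorly, and the 3p arm serves as the guide in AGO2. Whether every hairpin of the family is made in this way was not tested here.

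The sequences show how alike the family members are, which bears on how reads could be assigned. The RefSeq table used here (GRCh38.p14), which is not a complete list, held 7 hairpins of the family, while hsa-miR-320a, its founding member, is named only. The mature strands of these 7 are printed 5′ to 3′ with bases 2 to 8, the seed that pairs with targets, in capitals:
hsa-miR-320b: aAAAGCUGgguugagagggcaa
hsa-miR-320c: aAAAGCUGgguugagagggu
hsa-miR-320d: aAAAGCUGgguugagagga
hsa-miR-320e: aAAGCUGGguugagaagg
The first 3 carry 1 seed, and hsa-miR-320c shares its first 19 bases with hsa-miR-320b, hsa-miR-320d its first 18. Among the 2370 mature miRNA names that this table holds, 4 had the seed at bases 2 to 8, of which 3 are listed above and the other is hsa-miR-4429. The listed start of hsa-miR-320e gives another 7 letters at bases 2 to 8. For each of hsa-miR-320b, hsa-miR-320c and hsa-miR-320d, 2 hairpins at different sites of the genome give the same mature strand. The 2 hairpins of hsa-miR-320b show this, with the mature strand in capitals on the 3p side:
MIR320B1: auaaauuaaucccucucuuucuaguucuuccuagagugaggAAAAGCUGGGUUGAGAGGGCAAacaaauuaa
MIR320B2: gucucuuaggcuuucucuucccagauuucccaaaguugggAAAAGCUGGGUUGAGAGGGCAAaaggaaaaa
MIR320B1 lies at chr1:116671746-116671817 on the plus strand, outside any annotated gene body, and MIR320B2 at chr1:224257040-224257110 on the minus strand, intronic to NVL and in its orientation. The sources used here do not pair the names P1, P2a and P2b with these RefSeq names, so no printed sequence is assigned to a measured member. Reads too short to reach the bases that differ could belong to more than 1 member, and the division of reads between P1 and P2 is uncertain for this reason.

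The deposited values were RPM, reads of a miRNA relative to all reads of the library. In each library the values are steps of a single unit, that of 1 read, from which the read numbers given here were inferred. The 15 IP libraries of the 5 AGO2 constructs held 16636 to 754009 reads, of which 1150 to 30793 were mature miRNA reads. The 18 inputs held 9395 to 4162450 reads, of which 446 to 12040 were mature miRNA reads. A count of 3 reads is taken as the detection limit. Members of the Mir-10, Mir-17 and Mir-92 families, which are abundant in HEK293T, were present in 18 of 18 inputs, with 19.7 to 45.2%, 1.35 to 3.02% and 16.7 to 31.7% of mature miRNA reads.

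P1 was the main member of the family in every IP group and had reads in each of the 15 IP libraries of WT-AGO2 and the variants. In WT IP it had 138, 20 and 24 reads in replicates 1, 2 and 3, or 493, 194 and 87.6 RPM. As a share of mature miRNA reads, which removes the uneven miRNA content of the libraries, these were 0.448%, 0.311% and 0.393%. P1 thus stood at 28th, 33rd and 29th place among the distinct miRNAs in the WT IP libraries, ordered by RPM. The share varied far less between the replicates (0.384% ± 0.0690, SD, n = 3) than the RPM (258 ± 210, SD, n = 3).

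With F182del, the IP held 13, 2 and 30 reads of P1, or 0.147%, 0.0620% and 0.164% of mature miRNA reads. With N359H there were 10, 18 and 1 reads, or 0.151%, 0.286% and 0.0870%. With G604R there were 9, 3 and 7 reads, or 0.336%, 0.165% and 0.189%. All shares with F182del and N359H lay below the lowest WT share. The same held for 12 of 124 distinct miRNAs (9.68%) with F182del and 13 of 121 (10.7%) with N359H. With G604R the highest share of P1 fell within the WT range. The D619N IP libraries held 21, 9 and 11 reads, or 0.305%, 0.339% and 0.547%, on both sides of the WT values.

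Ordered by the mean share in IP, P1 stood highest with D619N (0.397% ± 0.131, SD, n = 3), then with WT, G604R (0.230% ± 0.0928), N359H (0.175% ± 0.102) and F182del (0.124% ± 0.0547). Each construct overlapped its neighbour in this order. F182del and N359H lay wholly below WT, and G604R and D619N did not. The counting error is wide beside such gaps: the 95% Wilson interval of the F182del library with 2 reads ran from 0.0170 to 0.226%, and that of the N359H library with 1 read from 0.0154 to 0.491%. These intervals cover counting error only, since reads are not independent molecules.

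**Figure D1:**
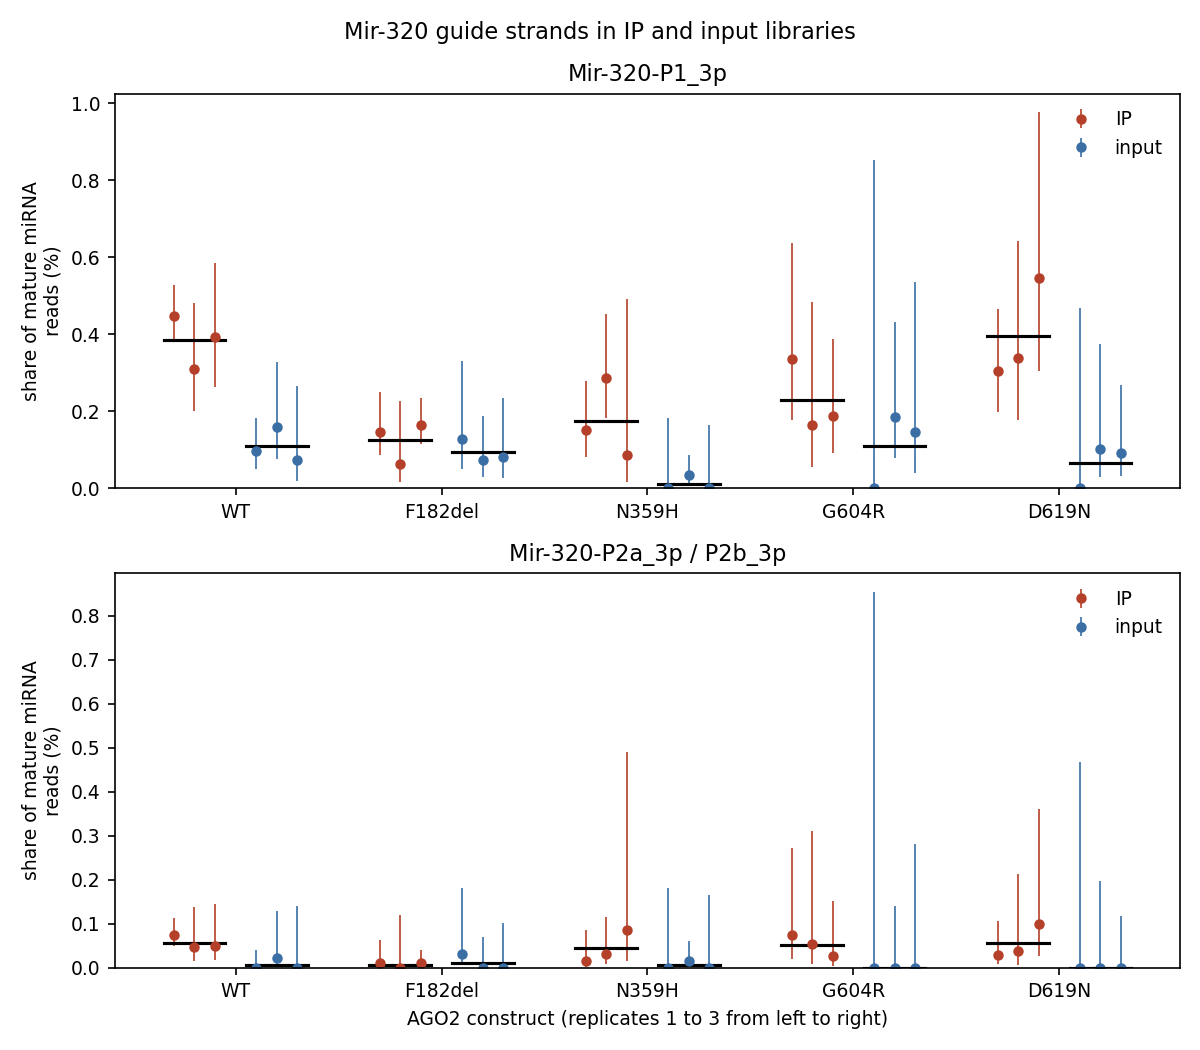
Share of mature miRNA reads (%) taken by P1 (top) and by P2 (bottom) in each IP and input library of the 5 AGO2 constructs. Points are libraries, vertical bars their 95% Wilson intervals and black lines the means of 3 libraries. P1 in IP lay between 0.311 and 0.448% with WT and between 0.0620 and 0.164% with F182del, and P2 was at 0 in most inputs.

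P2 was scarce in every library. WT IP held 23, 3 and 3 reads of it, or 0.0747%, 0.0467% and 0.0491% of mature miRNA reads. The IP of F182del held 1, 0 and 2 reads, that of N359H 1, 2 and 1, that of G604R 2, 1 and 1, and that of D619N 2, 1 and 2. Only WT replicate 1 therefore had more than 3 reads, and 2 of the WT libraries were at the detection limit. The mean share was 0.0568% ± 0.0155 (SD, n = 3) with WT and 0.00742% ± 0.00643 with F182del, and the F182del values, from 1, 0 and 2 reads, were all below those of WT. The other variants had means from 0.0446 to 0.0554% and overlapped WT.

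The balance between the members was close among the WT replicates. P2 made up 14.3%, 13.0% and 11.1% of the Mir-320 reads in WT IP, or 29 of 211 reads (13.7%, 95% Wilson interval 9.74 to 19.0%). It made up 3 of 48 reads with F182del (6.25%, interval 2.15 to 16.8%), 4 of 33 with N359H (12.1%), 4 of 23 with G604R (17.4%) and 5 of 46 with D619N (10.9%). All these intervals overlapped that of WT. They pool the reads of 3 libraries, and 161 of the 211 WT reads came from replicate 1. No test of the P2 share was run, so whether the balance shifts was not settled. The identical entries P2a and P2b are counted once here. If shared reads were divided between them, the P2 reads and the P2 share would be higher, and how they were divided is not given in the sources used here.

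**Figure D2:**
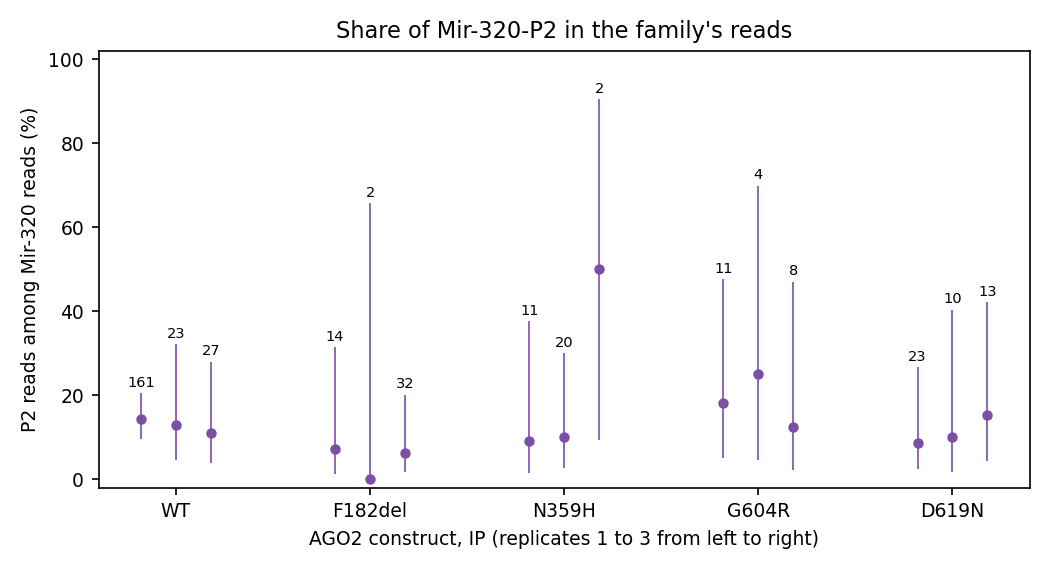
Share of P2 among the reads of the Mir-320 family (%) in each IP library. Bars are 95% Wilson intervals and the number above each bar is the count of Mir-320 reads in the library. The WT libraries lay between 11.1 and 14.3%, and libraries with 2 family reads gave no useful estimate.

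The comparison of each variant with WT-AGO2 asks whether an altered AGO2 binds the same miRNAs. It was tested with limma on log2(scaled RPM + 1), after median-of-ratios scaling, which sets each library relative to its other miRNAs. The threshold for a call was a Benjamini-Hochberg adjusted p under 0.05 together with a log2 fold change beyond 1 in either direction. The 4 comparisons share the same WT libraries.

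P1 fell in the IP of F182del, with a log2 fold change of −1.65 (SE 0.45, 95% interval −2.63 to −0.68, limma adjusted p = 0.0499). It was 1 of 8 called among 133 miRNAs tested (6.02%), and 1 of the 2 called lower, and had the 16th lowest log2 fold change. At the mean WT share, 34.0, 12.4 and 70.2 reads of P1 would be present in these libraries, against the 13, 2 and 30 found. The call sits at its threshold: with scaling factors centred at 1 the limma adjusted p was 0.0502, and the uncentred factors were kept as the main setting after both values had been seen. It was also lost without any of 5 of the 6 libraries. The limma adjusted p was 0.139 without WT replicate 1, 0.0754 without WT replicate 2, and 0.0933, 0.118 and 0.0793 without F182del replicate 1, 2 and 3. It was kept without WT replicate 3 (0.0471) and became 0.0130 with the replicate number as a block. The log2 fold change was −2.44 (adjusted p = 0.263) on the RPM as deposited, without scaling. P2 had a log2 fold change of −2.87 in the same comparison (SE 1.23, limma adjusted p = 0.216) and was not called.

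In the IP of N359H, P1 had a log2 fold change of −1.20 (SE 0.52, 95% interval −2.33 to −0.07, limma adjusted p = 0.740, unadjusted p = 0.0385). No miRNA was called among the 123 tested with limma (0%), and 6 had an unadjusted p below 0.05. The median of all tested miRNAs was itself −0.56, so P1 stood close to the middle of the distribution, at the 50th lowest value. The scaling rests on the 61 miRNAs above 0 in all libraries fitted, and N359H IP replicate 3 held 1150 mature miRNA reads. The effect of this depth on the median was not tested. P2 was at −0.56 (SE 1.49, limma adjusted p = 0.849).

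In the IP of G604R, P1 had a log2 fold change of −0.94 (SE 0.41, 95% interval −1.87 to −0.0049, limma adjusted p = 0.318), against a median of −0.34 over all 123 miRNAs tested, of which 4.88% were called. P2 was at −0.34 (95% interval −2.64 to 1.97, limma adjusted p = 0.873), which is the median itself. Neither member was called.

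With D619N, P1 in IP was at the WT level within the error of the comparison. The log2 fold change was 0.06 (SE 0.27, 95% interval −0.59 to 0.71, limma adjusted p = 0.905), an interval that contains neither a gain nor a loss of 1 on the log2 scale. The D619N comparison had the most calls, 18 of 123 (14.6%), 14 of them lower, and its median over all miRNAs was −1.18. P1 lay above this median and had the 31st highest value of the 123. The scaling rests on the 58 miRNAs above 0 in all libraries fitted. The D619N IP libraries held 6895, 2655 and 2011 mature miRNA reads, against 30793, 6429 and 6105 with WT. The effect of this depth on the median was not tested. P2 was at −0.17 (SE 0.82, 95% interval −2.14 to 1.81, limma adjusted p = 0.905), which leaves a large change in either direction possible.

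**Figure D3:**
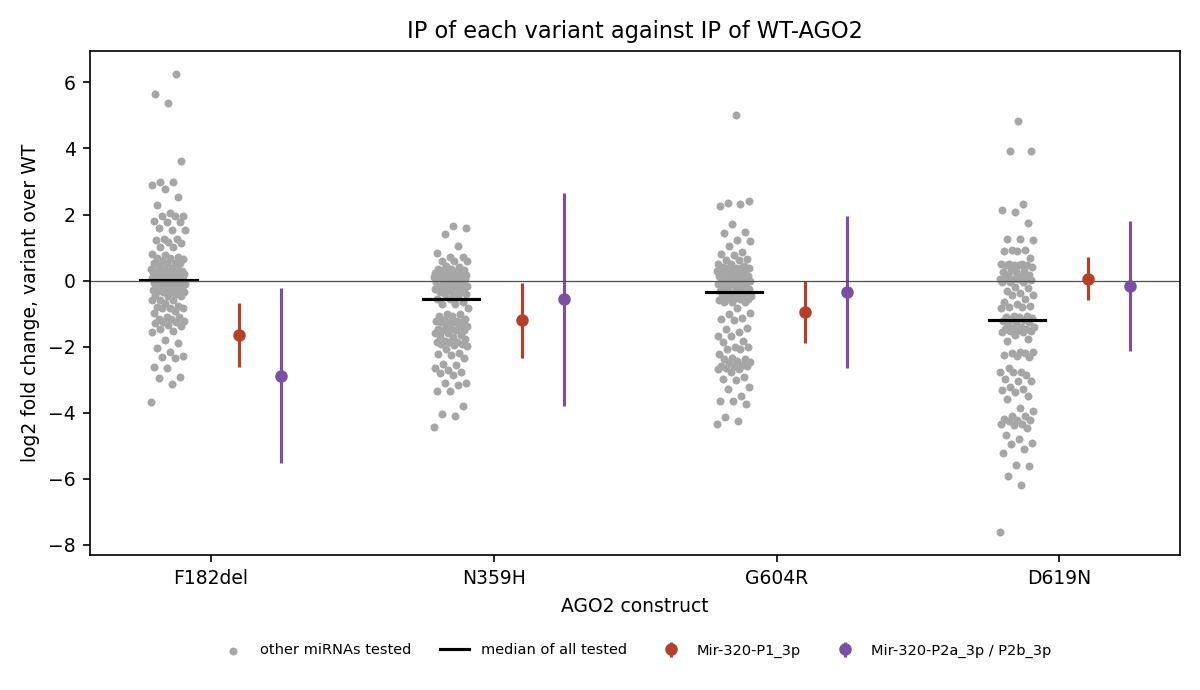
Log2 fold change of each variant over WT in IP for all miRNAs tested (grey points), their median (black line) and the Mir-320 members (coloured points with 95% intervals from limma). P1 lay at −1.65 with F182del, its interval below 0, and at 0.06 with D619N, above the median of −1.18 in that comparison.

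The shares were also compared library by library, without any model. P1 lay below all WT libraries in every F182del and every N359H library, and P2 in every F182del library. The share of all distinct miRNAs that lay below WT in this way was 9.68% (12 of 124) for F182del, 10.7% (13 of 121) for N359H, 9.09% (11 of 121) for G604R and 26.4% (32 of 121) for D619N. For P2 this placing rests on 1, 0 and 2 reads, and in F182del replicate 2 the detection limit of 0.0930% lies above every WT share, so that library cannot be placed below WT at its depth.

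The other guides of the table give the setting of these values. With F182del, the 37 other guides of the 3p arm had a median log2 fold change of −0.30, with 2 called higher and 0 lower. The 69 tested guides of the 5p arm had a median of 0.08, with 1 called in each direction. With D619N the medians were −0.21 over 36 guides of the 3p arm and −1.23 over 64 guides of the 5p arm. Other miRNAs known to bypass Drosha, Mir-484 and the mirtrons Mir-877, Mir-1225 and Mir-1226, had 0 entries in the table and were not analysed here.

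The variants were also set against each other in IP, in 6 pairs chosen after their values had been seen. P1 was lower with F182del than with D619N, by a log2 fold change of −1.79 (SE 0.46, 95% interval −2.91 to −0.67, limma adjusted p = 0.0434), in a comparison with 18.0% of 128 miRNAs called and a median of 1.13. This call was lost without F182del replicate 2 (log2 fold change −1.08, adjusted p = 0.0908), without F182del replicate 3 (0.0510) and without D619N replicate 1 (0.0873) or 3 (0.0825). It was also lost on CPM of mature miRNA reads (−1.75, adjusted p = 0.0737) and on the RPM as deposited (−3.05, adjusted p = 0.0506). P2 was at −2.89 in this pair (SE 1.12, limma adjusted p = 0.123).

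Neither member was called in the 5 remaining pairs. P1 had log2 fold changes of −0.32 for F182del against N359H, −0.66 for F182del against G604R and −0.31 for N359H against G604R, each with a 95% interval that spans 0. For N359H against D619N it was −1.42 (95% interval −2.73 to −0.11, limma adjusted p = 0.171), and for G604R against D619N −1.08 (−2.12 to −0.05, adjusted p = 0.142). The shares of all miRNAs called were 3.10%, 6.25%, 0.885%, 7.21% and 10% in these 5 pairs.

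IP was then compared with the input of the same construct, to ask whether the family was over-represented among the miRNAs bound to tagged AGO2. P1 had 9, 7 and 2 reads in the WT inputs, or 0.0958%, 0.159% and 0.0728% of mature miRNA reads. In RPM, P1 rose 90.1-, 51.6- and 52.1-fold from input to IP in replicates 1, 2 and 3, whereas all mature miRNAs together rose 19.3-, 26.4- and 9.65-fold. The share of P1 therefore rose 4.68-, 1.96- and 5.40-fold. Both folds of replicate 3 divide by an input of 2 reads, under the detection limit of 3, and are uncertain. In the limma fit P1 was called in WT (log2 fold change 2.01, SE 0.44, adjusted p = 0.0169), as were 11.9% of 126 miRNAs, 10 higher and 5 lower. The call was lost without WT IP replicate 1 (1.78, adjusted p = 0.1002) and kept without each other library. P2 was at 2.48 (SE 0.85, limma adjusted p = 0.0704), with 0, 1 and 0 reads in the WT inputs. It passed the filter on low values only through the IP libraries.

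In F182del, no difference between IP and input was detected for P1, and the 95% interval given below contains the WT value of 2.01. The inputs had 4, 4 and 3 reads, or 0.129%, 0.0726% and 0.0801%, and the share in IP was 1.14, 0.854 and 2.05 times that of the matching input. In replicate 2 the IP held 2 reads of P1, under the detection limit of 3. The log2 fold change was 0.63 (SE 0.71, 95% interval −0.84 to 2.103, limma adjusted p = 0.535), while 23.5% of 132 miRNAs were called in this comparison. P2 was at 0.16 (SE 0.81, limma adjusted p = 0.881).

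In the other variants at least 1 input held no read of P1. N359H had 0, 4 and 0 reads in its inputs, which together held 16483 mature miRNA reads, against 16543 with WT. Replicate 2 held 12040 of these. Replicates 1 and 3 held 2110 and 2333, where the detection limit of 0.142% and 0.129% lay above the mean WT input share of 0.109%. The log2 fold change of N359H IP over input was 3.95 (SE 1.57, limma adjusted p = 0.0888, with 11.7% of 120 miRNAs called). D619N had 0, 2 and 3 reads, with a log2 fold change of 3.81 (SE 1.36, limma adjusted p = 0.0960, with 17.5% of 103 called). D619N input replicate 1 held 17118 reads in all, so that 3 reads equal 175 RPM, and without it P1 was called (2.30, limma adjusted p = 0.0224). G604R had 0, 5 and 2 reads, with a log2 fold change of 2.02 (SE 1.33, limma adjusted p = 0.321, with 8.57% of 105 called). Its input replicate 1 was the smallest library, with 9395 reads, where 3 reads equal 319 RPM. Without that library the log2 fold change of P1 in G604R was 0.50 (limma adjusted p = 0.517). N359H was called without its IP replicate 3, the library with 1 read of P1 (4.37, limma adjusted p = 0.0353). Only 1 N359H input held reads of P1, so P1 passed the filter on low values there only through the IP libraries. Its log2 fold change in N359H ran from 1.74 with a pseudocount of 10 RPM to 7.81 on CPM of mature miRNA reads. The call without IP replicate 3 is therefore not evidence of enrichment.

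P2 passed the thresholds of the same fit in G604R (limma adjusted p = 0.0172) and D619N (adjusted p = 0.0276), where all 6 inputs held 0 reads of it. No fold is given for these, because the IP libraries held 1 or 2 reads each, under the detection limit of 3. P2 entered these fits only through the IP libraries, since the filter asks for at least 1 scaled RPM in at least 2 libraries of a group. With every input at 0 only a rise could be found, so these calls are not evidence of enrichment. With the replicate number as a block, IP and input of a replicate being from 1 lysate, the adjusted p was 0.0714 in G604R and 0.0901 in D619N. The D619N call was also lost on the RPM as deposited (0.0579) and with a pseudocount of 10 RPM (0.0694). The G604R call was also lost without its input replicate 1 (0.0852) or 3 (0.0755).

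**Figure D4:**
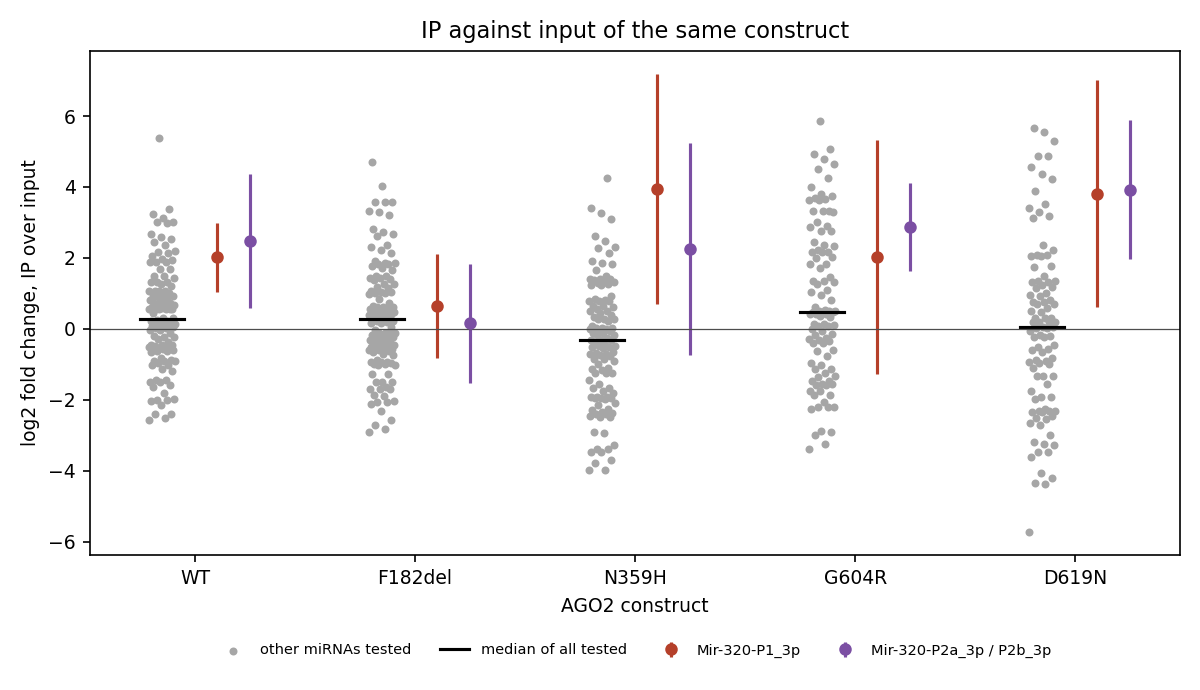
Log2 fold change of IP over input within each construct for all miRNAs tested (grey points), their median (black line) and the Mir-320 members (coloured points with 95% intervals from limma). P1 lay at 2.01 in WT and at 0.63 in F182del, and the intervals of N359H, G604R and D619N are wide, with at least 1 input in each at 0 reads of P1.

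A direct test of the difference between variant and WT in the step from input to IP called neither member for any variant. The interaction of fraction and construct for P1 was −1.40 for F182del (SE 0.78, 95% interval −3.02 to 0.23, limma adjusted p = 0.439), 1.78 for N359H (SE 1.27, adjusted p = 0.647), −0.11 for G604R (SE 1.45, adjusted p = 0.949) and 1.60 for D619N (SE 1.34, adjusted p = 0.533). For P2 in F182del it was −2.17 (SE 1.09, limma adjusted p = 0.357). The calls over all miRNAs were few as well, at 0.741%, 0%, 1.54% and 3.94% for F182del, N359H, G604R and D619N. The enrichment of P1 in WT IP and its absence among the calls in F182del are thus not shown to differ from each other.

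In the lysate, no difference between constructs was detected for P1. Relative to WT input, its log2 fold changes were −0.21 (SE 0.46) for F182del, −1.95 (SE 0.77) for N359H, −0.51 (SE 1.13) for G604R, −0.98 (SE 1.10) for D619N and −0.77 (SE 0.66) for the empty vector. The limma adjusted p ranged from 0.826 to 0.994, and 0% of miRNAs were called in each of the 5 comparisons, with 9, 2, 11, 4 and 3 miRNAs at an unadjusted p below 0.05. N359H had the lowest value of the 106 miRNAs tested there, with 4 reads of P1 in its 3 inputs against 18 with WT. Replicates 1 and 3 of the N359H input held 0 reads, at a depth where the detection limit lay above the mean WT share. P2 had at most 2 reads in any input and did not pass the filter on low values.

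The empty vector gives the background of the precipitation. Its 3 IP libraries held 184, 174 and 202 mature miRNA reads and 0 reads of either member. In RPM, the WT mean of P1 was at least 2.31-fold higher than the mean of 3 reads in the empty vector libraries (p = 0.1 in a two-sided exact permutation test, the smallest value possible with 3 libraries a group and the only one possible with every empty vector library at 0). Without WT IP replicate 1 the bound was 1.26-fold, and WT replicate 3, at 87.6 RPM, lay under the mean limit of 112 RPM. The means of F182del (40.4 RPM) and G604R (54.6 RPM) also lay under it. This limit reflects the depth of the empty vector IP libraries, where 3 reads equal 166, 62.4 and 107 RPM, and is not a measured background. Whether P1 in the IP of F182del and G604R exceeds the background is therefore not settled by it. As a share of mature miRNA reads nothing can be said, since at the mean WT share only 0.707, 0.668 and 0.776 reads of P1 would be present in these libraries. In the empty vector inputs P1 had 0, 6 and 5 reads, within the range of the other inputs.

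Among the other miRNAs, Hsa-Mir-561_5p followed P1 most closely over the 15 AGO2 IP libraries, with a Pearson correlation of 0.752 on log2(CPM of mature miRNA reads + 1). Hsa-Let-7-P2c2_5p (0.615), Hsa-Mir-26-P1_5p (0.572), Hsa-Mir-92-P2d_3p (0.571) and the passenger strand Hsa-Mir-10-P1c-v1_3p* (0.558) came next. P2 had a correlation of 0.673 with P1, and the median over the 122 other distinct miRNAs was −0.03. These values are descriptions: the points share libraries, depth and construct, and Hsa-Mir-561_5p averaged 4.87 reads per library.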

How the data were processed

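Small RNA libraries (TruSeq Small RNA kit) were processed by the authors with sRNAbench and the MirGeneDB annotation. The deposited values are RPM, scaled to all reads of a library, whether or not they map to a miRNA. The submitters' processing notes name GRCh38. The label of the values carries the terms minExpr1 and RCadj, and how reads that fit several miRNAs were divided is not given in the sources used here. All values above 0 (100%) were whole multiples of 1 read (tolerance 0.001), but low values are too few to tell whether they are raw counts, and count models were left out.

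Groups follow the sample titles. RPM was scaled by median-of-ratios factors in their usual, uncentred form (a first version centred them at 1, and the change was made after its results were seen), and miRNAs with at least 1 scaled RPM in at least 2 libraries of a group were tested with limma 3.58.1 (R 4.3.3; lmFit, eBayes with trend) on log2(scaled RPM + 1), two-sided, with Benjamini-Hochberg adjustment over all tested. A fold change on this scale can understate changes of low miRNAs. It can also overstate them where a shallow library holds 0 reads, since 0 lies far under the detection limit there. For P1, IP over input was 3.81 in D619N and 2.30 without input replicate 1. In G604R it was 2.02, and 0.50 without input replicate 1. Wilson intervals at the 95% level and a detection limit of 3 reads used the inferred reads. Mature miRNA reads are the sum over all 135 entries, identical ones included. The fits were tested on simulated data.

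All members by the rule are named, with passenger strands of the same hairpins, other Drosha-independent miRNAs where listed, and the 5 miRNAs most correlated with P1. The members and lists were chosen with earlier results of these data known. To see whether equal replicate numbers pair the libraries, their deviations from the group means were correlated. All 3 correlations were above 0.1 for F182del against WT in IP (0.323, 0.162 and 0.133) and in input (0.103, 0.230 and 0.226), and in no other comparison. A replicate's IP was made from the lysate of its input. Sequences and their positions are from a RefSeq table of GRCh38.p14, and overlapping genes from a GENCODE annotation of GRCh38.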

Additional observations from a re-analysis of the deposited data

How the results depend on the processing

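Depth limits most values: P2 rests on 0 to 3 reads in all libraries but WT IP replicate 1, and P1 on 10 reads or fewer in every input. Of 487 recomputed values of the planned comparisons, 433 kept their direction and side of the threshold, 20 lost and 10 gained a call, and 24 reversed. Of 168 in the variant pairs, added after the data were seen, 151 were kept, 6 lost a call and 11 reversed. The planned edgeR, DESeq2 and TMM alternatives were not run, since the inferred reads could not be established as unadjusted counts. The cause of the changes below was not tested.

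The number of members called for F182del IP against WT IP was 1, and 0 with a pseudocount of 0.5 RPM, on the RPM as deposited, on CPM of mature miRNA reads, in the fit of all 5 AGO2 constructs and with centred scaling factors (limma adjusted p of P1 between 0.0502 and 0.263 in these 5, against 0.0499). With each library left out in turn it was 0 to 1. For IP against input, the RPM as deposited gave 2 members in WT, 1 in F182del, 2 in N359H and 2 in G604R, a scale on which the rise of all miRNAs in IP is not removed. A pseudocount of 10 RPM gave 1 in N359H and 0 in G604R, and in D619N both of these settings kept the count of 1 but exchanged the member, with P2 lost (limma adjusted p = 0.0579 and 0.0694) and P1 gained (0.0225 and 0.0272). No filter on low values gave 0 in G604R and 0 in D619N. The replicate block gave 0 in both G604R and D619N, and it changed no other call of a member. With a library left out the number was 0 to 1 in WT, 0 to 1 in N359H, 0 to 1 in G604R and 1 to 2 in D619N.

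Reversals concerned values that passed no threshold. For D619N IP against WT IP, P2 became 0.36 on the RPM as deposited and 0.070 in the fit of all 5 AGO2 constructs. The interaction for G604R became 0.17 for P1 with a pseudocount of 0.5 RPM, 2.096 for P1 on CPM and −1.19 for P2 on the RPM as deposited. N359H against G604R became 1.01 for P1 and 0.97 for P2 on the RPM as deposited, and G604R against D619N became 0.0084 for P2 on CPM. With each library left out, the log2 fold changes against WT in IP ranged from −0.67 to 0.024 for P2 in G604R, from −0.17 to 0.23 for P1 in D619N and from −0.54 to 0.11 for P2 in D619N. P2 in F182del IP against input ranged from −0.20 to 0.86, and P1 against WT input from −0.40 to 0.033 in F182del and from −1.18 to 0.38 in G604R. The interactions ranged from −1.25 to 0.15 for P2 in N359H, from −1.53 to 0.76 for P1 and −0.25 to 0.78 for P2 in G604R, and from −0.076 to 1.20 for P2 in D619N. Among the pairs, P1 ranged from −0.86 to 0.12 for F182del against N359H and from −0.67 to 0.25 for N359H against G604R, and P2 from −0.75 to 0.18 for N359H against G604R and from −0.59 to 0.088 for G604R against D619N.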
